A study of Mus musculus with 29 samples.

Results

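Lungs of mice without Klf15 were compared with lungs of wild-type mice 8 h after a saline injection, the vehicle of the study, so that the effect of losing the gene could be read without added glucocorticoid. Of the 29 arrays of the series, 7 belonged to this comparison by genotype, treatment and time in their labels: 4 knockout (KO) arrays, replicates 45 to 48, and 3 wild-type (WT) arrays, replicates 37 to 39. All mice were C57BL/6, 6 to 8 weeks old, and received saline for 8 h. The other arrays used as comparisons were KO and WT lungs 4 h after saline (3 and 4 arrays) and 8 h after dexamethasone, a synthetic glucocorticoid, at 2.5 mg/kg (4 and 3 arrays). The sources used here do not give how Klf15 was deleted, in which cells, or the sex of the mice. RNA came from whole lung, so fewer cells of a type and less RNA per cell cannot be told apart.

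Klf15 is a Krüppel-like zinc-finger transcription factor that binds CACCC and GC-rich elements in DNA. Its gene is induced by the glucocorticoid receptor. In liver and muscle it is known for driving the breakdown of amino acids, including the branched-chain amino acids leucine, isoleucine and valine, whose carbon can then be burned or used to make glucose.

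Levels are log2 signals of a probe relative to the 75th percentile of its array, so 0 is the brightness that 75% of probes stay below. Levels of different probes are not comparable, and differences are KO minus WT. A gene was read by its brightest probe and called when its adjusted p in limma (Benjamini-Hochberg over 15357 genes) was under 0.05. By that rule 2117 genes were called (13.8% of genes tested), 772 higher in KO (5.03%) and 1345 lower (8.76%). Their arrays did not overlap between the groups in 1934 genes (12.6%). The median difference over all genes was -0.13, not 0. With 5 other scalings of the same arrays this median lay between -0.06 and -0.03, and 61.4 to 74.8% of called genes were higher in KO, against 36.5% here. In all 6 scalings together, 334 genes were called higher (2.17%) and 91 lower (0.593%).

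Probes of the same gene often moved apart in these arrays. For 2547 genes whose brightest and dimmest probes lay over 2 log2 units apart, the mean bright-to-dim ratio, centred by gene, was -0.12, -0.17, -0.16 and -0.21 on the KO arrays and -0.00, 0.04 and -0.04 on the WT arrays. All 4 KO arrays lay below all 3 WT arrays. The difference was -0.16 (two-sided exact permutation p = 0.0571, the smallest that 4 against 3 arrays can give). At saline 4 h the ratio was likewise lower in KO (-0.22, -0.37 and -0.23) than in WT (0.07, -0.01, 0.07 and 0.17). After quantile normalization the saline 4 h groups overlapped, with KO replicate 41 at -0.065 and WT replicate 36 at -0.086. Under dexamethasone at 8 h the genotypes overlapped (0.01, 0.08, 0.09 and 0.29 in KO, 0.11, 0.15 and -0.08 in WT). Among called genes with at least 2 probes, whatever the gap between them, the dimmest and brightest probes shared their direction in 547 of 945 at saline 8 h (57.9%). Under dexamethasone 240 of 268 did (89.6%). The part of this ratio in single calls was not tested, beyond a fit that holds it as a covariate. The results below therefore lead with genes whose every probe was called in the same direction, which 5420 genes with at least 2 probes could be. That held for 125 genes (2.31%), 82 higher (1.51%) and 43 lower (0.793%), and for 37 and 9 genes it held with a call in all 6 scalings (46 genes, 0.849%).

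**Figure D1:**
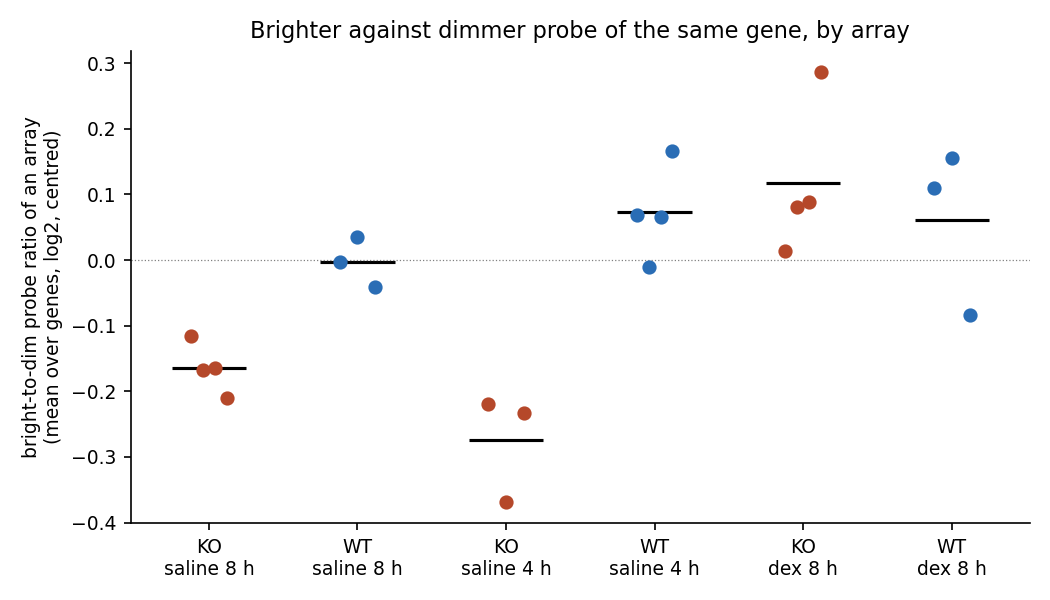
Mean log2 ratio of the bright to the dim probe of a gene, centred by gene, with 1 point per array (y axis, log2) for KO and WT lungs under saline at 8 h, saline at 4 h and dexamethasone at 8 h; short lines are group means. The 4 KO arrays at saline 8 h lie between -0.21 and -0.12, all below the WT arrays, while KO and WT overlap under dexamethasone.

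Klf15 itself, the targeted gene, checks the labels. Its brighter probe read -0.55, -0.43, 0.15 and 0.57 on the KO arrays and 3.07, 2.77 and 3.11 on the WT arrays. The groups were far apart, and the KO arrays were the more spread (-0.07 ± 0.52, SD, n = 4, against 2.98 ± 0.19, SD, n = 3). The difference was -3.05 ± 0.22 (SE, adjusted p = 7.86e-09 in limma), a KO over WT ratio of 0.121. The dimmer probe read -2.59, -2.66, -2.81 and -2.52 in KO and -0.39, 0.03 and -0.56 in WT, a difference of -2.34. Both probes stayed well above background on all KO arrays, and the sources used here do not say whether they lie in the deleted part. On slide 1, which alone carried arrays of both groups (KO replicate 48, WT replicate 39), the difference was -2.54.

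Adhfe1, Sfxn2 and Bckdhb, whose products act in mitochondria, were among the 43 genes that fell by every probe. Adhfe1, a mitochondrial hydroxyacid-oxoacid transhydrogenase that oxidises 4-hydroxybutyrate, read -8.47, -7.63, -7.56 and -7.22 in KO and -3.74, -3.89 and -3.65 in WT. It differed by -3.96 ± 0.50 (SE, adjusted p = 3.74e-05), and its second probe by -2.50 (adjusted p = 0.0297 over probes). The KO signal was near the floor of the array: the first probe was well above background on 3 of 4 KO arrays and the second on 1 of 4, and on all 3 WT arrays. Its difference kept its call in all 21 alternatives that gave a value, but its size was not stable and ran from -4.41 to -1.21, with -2.05 in the deposited table and -1.21 after normexp and quantile normalization. Sfxn2, a sideroflexin of the inner mitochondrial membrane, read -1.45, -1.58, -1.73 and -1.47 in KO and -0.58, -0.52 and -0.57 in WT. It differed by -1.0 ± 0.11 (SE, adjusted p = 3.7e-06) and by -1.04 at the second probe, which read -2.31, -2.29, -2.25 and -2.14 in KO and -1.05, -1.40 and -1.17 in WT. Bckdhb, the E1 beta subunit of the branched-chain ketoacid dehydrogenase that commits these amino acids to breakdown, read 0.31, 0.33, 0.26 and 0.40 in KO and 0.92, 0.96 and 1.02 in WT. Its difference was -0.64 ± 0.06 (SE, adjusted p = 1.04e-07), and -0.62 at the second probe. Neither gene's groups overlapped at either probe.

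Rcor3, Rab11fip1, Farp1 and Ccdc159 also fell by every probe and in all 6 scalings. Rcor3, a corepressor of the CoREST family, read -0.21, -0.29, -0.59 and -0.12 in KO and 1.26, 1.02 and 0.81 in WT, a difference of -1.33 ± 0.22 (SE, adjusted p = 0.000972). At its dimmer probe the difference was -0.47. Rab11fip1, an effector of the recycling GTPase Rab11, read 0.62, 0.55, 0.58 and 0.43 in KO and 1.34, 1.13 and 1.21 in WT, and differed by -0.68 and -0.49 at its probes. Farp1, a guanine nucleotide exchange factor of small GTPases, was 3.11, 3.08, 2.99 and 3.06 in KO and 3.55, 3.47 and 3.61 in WT, and its probes gave -0.49 and -0.43. The coiled-coil gene Ccdc159 gave -0.73 and -0.60. With Klf15, Adhfe1, Sfxn2, Bckdhb and the myosin Myh2, described with the muscle genes, they make a set of 9. Each of them kept its direction on the shared slide, whose arrays are among the 7 compared, so this is not an independent check.

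**Figure D2:**
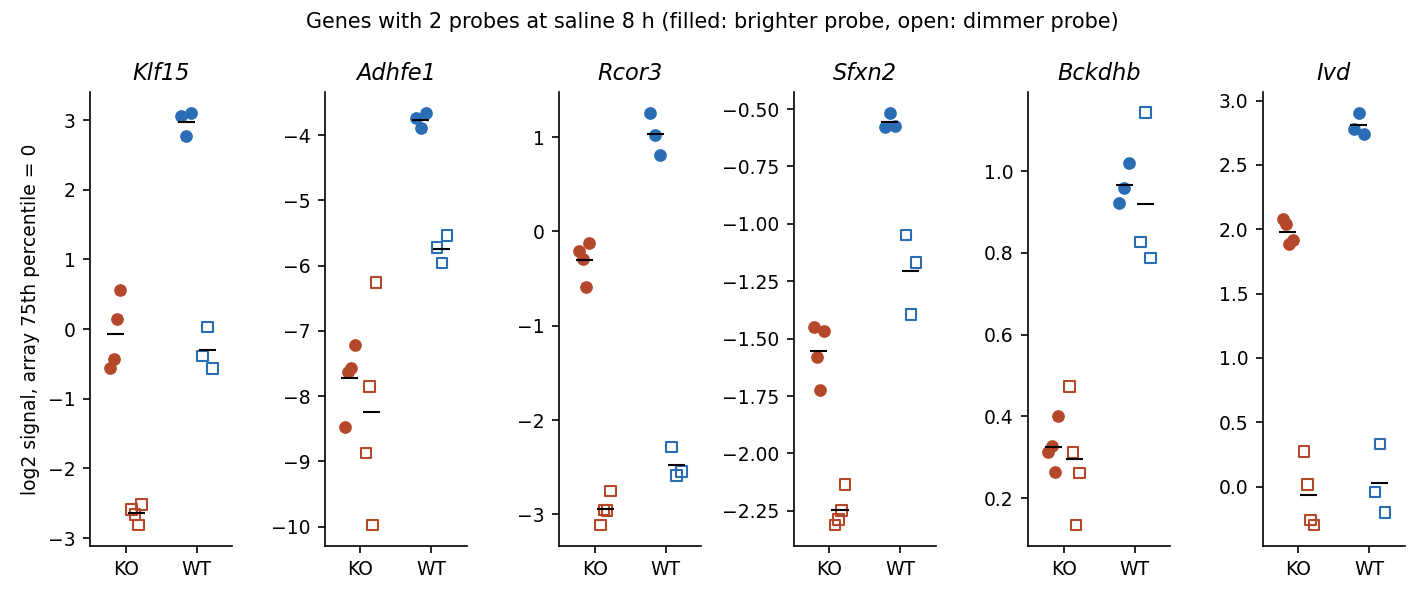
Levels of both probes (log2, relative to the 75th percentile of the array, y axis) of Klf15, Adhfe1, Rcor3, Sfxn2, Bckdhb and Ivd on each KO and WT array at saline 8 h; filled points are the brighter probe, open squares the dimmer one and short lines the group means. Both probes of the first 5 genes are lower in KO, whereas the dimmer Ivd probe overlaps between the groups.

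Promoters of 4 genes are printed because Klf15 binds CACCC and GC-rich elements and these genes were lower in KO here and also at saline 4 h and dexamethasone 8 h. They are Bckdhb and Sfxn2, which fell at both probes, Aldh6a1, an enzyme of valine breakdown, and Gnmt, the glycine N-methyltransferase that consumes S-adenosylmethionine. Gnmt was chosen after its values were seen. Each line holds the 250 bases before a start of the gene in RefSeq on GRCm38.p6, 5′ to 3′ on the strand of the gene, the more upstream start where 2 are listed. Capitals mark CACCC or its complement GGGTG, and GGGCGG or its complement CCGCCC, on either strand; adjoining matches run together. They lie at chr9:83924887-83925136 (plus strand, Bckdhb), chr19:46573115-46573364 (plus strand, Sfxn2), chr12:84451025-84451274 (minus strand, Aldh6a1) and chr17:46729166-46729415 (minus strand, Gnmt).
Bckdhb: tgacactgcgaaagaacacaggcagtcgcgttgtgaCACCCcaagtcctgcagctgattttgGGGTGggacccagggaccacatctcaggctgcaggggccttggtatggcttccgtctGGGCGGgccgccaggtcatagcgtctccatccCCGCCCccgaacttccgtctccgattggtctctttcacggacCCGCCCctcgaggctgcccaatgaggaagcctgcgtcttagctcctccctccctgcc
Sfxn2: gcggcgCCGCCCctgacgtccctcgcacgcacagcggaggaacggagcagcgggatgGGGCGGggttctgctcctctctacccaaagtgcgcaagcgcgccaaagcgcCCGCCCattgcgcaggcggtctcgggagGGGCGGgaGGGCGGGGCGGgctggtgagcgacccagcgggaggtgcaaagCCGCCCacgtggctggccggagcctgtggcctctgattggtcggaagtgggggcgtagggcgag
Aldh6a1: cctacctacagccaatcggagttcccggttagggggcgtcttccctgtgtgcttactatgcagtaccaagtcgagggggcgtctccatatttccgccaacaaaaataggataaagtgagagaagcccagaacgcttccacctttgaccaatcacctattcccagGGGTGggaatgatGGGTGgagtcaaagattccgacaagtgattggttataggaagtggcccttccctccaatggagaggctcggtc
Gnmt: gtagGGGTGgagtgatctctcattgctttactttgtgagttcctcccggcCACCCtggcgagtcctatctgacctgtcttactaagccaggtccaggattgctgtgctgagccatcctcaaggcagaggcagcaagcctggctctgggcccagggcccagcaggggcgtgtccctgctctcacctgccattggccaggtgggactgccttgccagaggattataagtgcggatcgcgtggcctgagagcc
The Bckdhb window held 2 CACCC and 3 GC matches, that of Sfxn2 0 and 7, and those of Aldh6a1 and Gnmt 2 CACCC matches each and 0 GC matches. Of all 32851 promoters in the table, 52% held a CACCC match and 32.7% a GC match. Those belong to 27025 genes, whereas the sets below come from the 15357 genes tested, so they are not a matched background. For 45 of the 59 genes lower in all 3 genotype comparisons, 58 promoters were read, and the shares were 67.2% and 63.8%. For 14 of the 19 genes higher in all 3, 21 promoters were read, with 71.4% and 61.9%. The other members of both sets are not in these shares. A match is a stretch of letters, not a site shown to be bound.

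In the lists of amino acid breakdown most members were not called, and the calls were mostly falls. Of all genes tested 8.76% were lower and 5.03% higher, which is the background for this and the later lists at saline 8 h. Of the branched-chain list, 6 of 23 tested members were lower and 0 higher, with a list median of -0.25 beside -0.13 for all genes. Aldh6a1 read 1.83, 1.78, 1.70 and 1.88 in KO and 3.25, 3.1 and 3.01 in WT, a difference of -1.32 ± 0.11 (SE, adjusted p = 4.31e-08), from a single probe. Ivd, which oxidises isovaleryl-CoA from leucine, read 2.08, 2.04, 1.88 and 1.92 in KO and 2.78, 2.91 and 2.74 in WT. Its difference was -0.83 ± 0.08 (SE, adjusted p = 2.79e-07), but its dimmer probe gave -0.10 (adjusted p = 0.69 over probes). Hibch, a hydrolase of the valine route, differed by -0.25 (adjusted p = 0.0234). For Mccc1 and Bckdha, subunits of leucine carboxylation and of the E1 component, the brightest probes gave -0.56 and -0.39 and the other probes 0.10 and 0.22, so the probes disagreed. Members without a call included the E2 subunit Dbt at -0.21, the kinase Bckdk that restrains the complex at 0.30, and Acadsb at -0.03. Under the 5 other scalings 3 or 4 members were lower and 0 higher. When any 1 of the 7 arrays was left out 4 to 6 were lower and 0 to 2 higher, with 1 higher without KO replicate 48 and 2 without WT replicate 38. The ratio as a covariate gave 6 lower and 1 higher, and slide as a block 13 lower and 2 higher.

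In the list of other amino acid breakdown, 10 of 44 tested members were lower and 1 higher, with a median of -0.21. The transsulfuration pair that turns homocysteine into cysteine fell together. Cbs, the first enzyme, read -5.49, -5.68, -5.47 and -4.87 in KO and -2.79, -2.69 and -2.77 in WT (-2.63 ± 0.19, SE, adjusted p = 7.86e-09). Cth, the second, read -1.78, -1.88, -1.40 and -1.43 in KO and -0.75, -0.73 and -0.60 in WT (-0.93 ± 0.12, SE, adjusted p = 3.35e-05). Neither pair of groups overlapped.

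Proline, lysine and GABA were represented as well. Prodh, which opens proline breakdown, read 1.80, 1.59, 1.45 and 1.35 in KO and 2.39, 2.77 and 2.54 in WT, a difference of -1.02 ± 0.14 (SE, adjusted p = 0.000117). Aass, the bifunctional first enzyme of lysine breakdown, read -0.64, -0.66, -0.82 and -0.68 in KO and 0.42, 0.47 and 0.43 in WT (-1.14, adjusted p = 1.8e-07). Abat, the GABA transaminase, differed by -1.31 (adjusted p = 6.09e-08). Aldh4a1, which finishes proline breakdown, had probes at -0.38 and -0.61. The tyrosine enzymes Gstz1 and Fah differed by -0.53 and -0.35, and ornithine aminotransferase Oat by -0.30. Glutamine synthetase Glul was at -0.39 by its brightest probe and 0.12 by the other. The member that was higher was methionine synthase Mtr (0.26, adjusted p = 0.0193). All of these except Aldh4a1 and Glul rest on a single probe. Under the 5 other scalings 6 to 9 members were lower and 0 or 1 higher. With the bright-to-dim ratio as a covariate 14 members were lower and 0 higher.

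**Figure D3:**
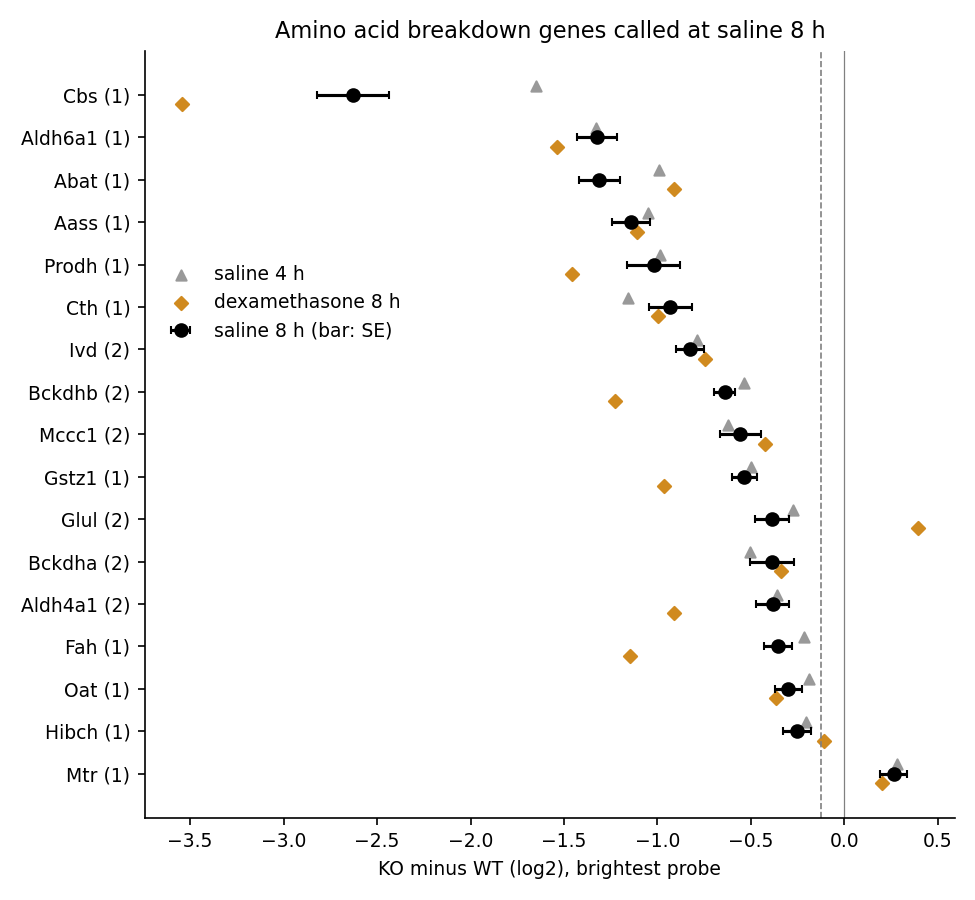
KO minus WT difference (log2, x axis) for the called members of the 2 amino acid breakdown lists at saline 8 h (points with SE bars), saline 4 h (triangles) and dexamethasone 8 h (diamonds), with the number of probes in brackets and the median of all genes at saline 8 h as a dashed line. Cbs, Aldh6a1, Abat, Aass and Prodh lie left of -1 at saline 8 h, and Mtr is right of 0.

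Some of the largest falls were genes outside these lists with a single probe. Azgp1, a secreted zinc-binding glycoprotein linked to fat mobilisation, read -5.33, -4.73, -4.56 and -3.17 in KO and -0.15, -0.22 and -0.18 in WT (-4.27 ± 0.43, SE, adjusted p = 1.21e-06). Slc13a4, a sulfate transporter, read -3.39, -3.79, -3.28 and -2.06 in KO and 0.08, 0.19 and 1.03 in WT (-3.56 ± 0.41, SE, adjusted p = 1.17e-05). The KO arrays of both genes lay below every WT array, with replicate 48 the highest of them.

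Gnmt read -1.75, -1.67, -1.80 and -1.41 in KO and 0.48, 0.71 and 0.54 in WT (-2.23 ± 0.11, SE, adjusted p = 1.65e-11). The genes Lrtm2 (-2.72), Kyat3 (-1.30), a kynurenine aminotransferase, and the growth factor carrier Fgfbp1 (-1.24) were among those lower in all 3 genotype comparisons, and were chosen after their values were seen. Krt27, a hair follicle keratin, was not well above background on any KO array and was at least 17.3-fold lower in KO than in WT (adjusted p = 0.00869). By the same reckoning Zfp36l3 was at least 9.11-fold lower (adjusted p = 0.0379) and the Kupffer cell lectin Clec4f at least 8.91-fold (adjusted p = 0.041). These bounds set the WT mean against, per KO array, the higher of the dimmest signal well above background and the probe's own. The Krt27 call ended with the deposited table, and those of Zfp36l3 and Clec4f in 11 and 12 of the 21 alternatives that gave them a value. Over these alternatives the difference ran from -5.88 to -0.68 for Krt27, from -5.24 to -0.54 for Zfp36l3 and from -4.01 to -0.46 for Clec4f. The bounds therefore hold only for the processing used here.

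In the list of fatty acid oxidation and lipolysis, 7 of 36 members were lower and 1 higher, with a median of -0.21. Of the 7 falls, 5 had all probes of 1 sign. Ppara, the nuclear receptor that turns on fatty acid oxidation, read -2.64, -2.75, -2.57 and -2.76 in KO and -1.95, -1.95 and -1.90 in WT (-0.75 ± 0.10, SE, adjusted p = 5.26e-05). The thiolase Acaa2 differed by -0.45, the carnitine transferase Cpt2 by -0.40 and the lipase inhibitor Angptl4 by -0.53. For the carnitine transferase Cpt1a the brightest probe gave -0.33 and the other 0.34. The short-chain dehydrogenase Acads was higher (0.52, adjusted p = 0.00737). Under the 5 other scalings 1 to 5 members were lower and 1 or 2 higher, and Ppara and Acads were the members called in all 6. Slide as a block gave 12 lower and 2 higher. Acot1, a cytosolic acyl-CoA thioesterase outside the list, was at -1.36 (adjusted p = 0.00018). In fatty acid and triglyceride synthesis 5 of 22 members were lower and 0 higher, led by the carbohydrate-response factor Mlxipl at -0.85 (adjusted p = 1.35e-05). Of these 5 falls, 3 had all probes of 1 sign. That list had 1 or 2 lower members under each other scaling and up to 2 higher ones.

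Rises seen by every probe were smaller than the largest falls, and none reached 1 on the log2 scale by the brightest probe. Ctnnd1, the p120 catenin that stabilises cadherins at cell junctions, read 0.75, 0.87, 0.71 and 0.59 in KO and -0.24, -0.00 and -0.25 in WT (0.89 ± 0.18, SE, adjusted p = 0.0039). Its dimmer probe read -4.01, -4.40, -3.93 and -4.32 in KO and -4.94, -5.40 and -4.72 in WT, a difference of 0.86. Neither probe's groups overlapped.

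Vamp3, a SNARE protein of recycling endosomes, read 0.47, 0.54, 0.50 and 0.52 in KO and -0.17, -0.37 and -0.34 in WT (0.80 ± 0.18, SE, adjusted p = 0.00639), and 0.49 at the second probe. U2af2, the large subunit of the splicing factor that recognises the polypyrimidine tract, read -0.48, -0.54, -0.71 and -0.73 in KO and -1.47, -1.34 and -1.47 in WT, and its probes gave 0.81 and 0.62. Igfbp4, a binding protein that restrains insulin-like growth factors, read 0.70, 0.99, 0.95 and 0.99 in KO and 0.17, 0.33 and 0.21 in WT, and its probes gave 0.67 and 0.69. All 4 of these genes were called in each of the 22 alternatives that gave a test.

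Further genes rose at both probes but lost their call in 1 or more alternatives. The kinase Hipk2 gave 0.76 and 0.43. The Notch antagonist Numb gave 0.66 and 0.92, and lost its call on the 7 arrays alone. Kcnk3, the acid-sensitive potassium channel TASK-1, gave 0.61 and 0.68, and lost its call on the 7 arrays alone and without WT replicate 37. Cttn, which promotes branched actin, gave 0.61 and 0.60, Ogdh, a subunit of the oxoglutarate dehydrogenase, 0.65 and 0.57, and Fmnl1, a formin of blood cells, 0.68 and 0.69. The rise of Wdr63 (0.95, adjusted p = 0.0329), an axonemal dynein component, ended in 7 alternatives. Of the 82 rises, 58 were called with the ratio as a covariate and 15 on the 7 arrays alone; of the 43 falls, 21 and 11.

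Among genes with a single probe the largest rise was that of Fbln2, an extracellular matrix protein of elastic fibres and basement membranes. It read 2.03, 2.02, 1.74 and 2.07 in KO and -0.01, 0.00 and -0.28 in WT (2.06 ± 0.19, SE, adjusted p = 3.58e-07). The groups were separated by more than 1 log2 unit. Ptov1 read 2.75, 2.65, 2.55 and 2.36 in KO and 1.29, 1.07 and 0.75 in WT (1.54 ± 0.40, SE, adjusted p = 0.0134), a call that ended without WT replicate 39. Trappc10, a subunit of a vesicle tethering complex, was at 1.14 (adjusted p = 0.00742) and the matrix remodelling gene Mxra7 at 1.09 (adjusted p = 0.00176).

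Of 16 endothelial markers 4 were higher and 0 lower at saline 8 h, with a median of 0.01, where all genes had -0.13. Pecam1, the junction molecule CD31, read 2.68, 2.60, 2.53 and 2.35 in KO and 2.04, 2.16 and 1.92 in WT (0.50, adjusted p = 0.00269). Tie1, an orphan angiopoietin co-receptor, read 3.19, 3.08, 2.87 and 3.05 in KO and 2.51, 2.69 and 2.55 in WT (0.46, adjusted p = 0.00504). The TGF beta co-receptor Eng was at 0.39 and the carbonic anhydrase Car4, also a marker of alveolar macrophages, at 0.36. Each has a single probe. The other scalings gave 2 to 5 higher members, leaving out 1 array 2 to 4, and slide as a block 4 higher and 2 lower. At saline 4 h 2 members were called higher and 5 lower, with a median of -0.13, where all genes had -0.04. Of all genes tested 6.06% were higher and 19% lower at saline 4 h. The test of the difference between saline 8 h and 4 h called 0 genes, so a change of these markers with time was not shown.

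Cholesterol genes were mixed. Of 24 members 5 were higher and 3 lower, with a median of -0.07. All probes had 1 sign in 4 of the 5 rises and 2 of the 3 falls. The demethylase Cyp51 read -1.18, -1.13, -0.60 and -1.07 in KO and -1.41, -1.61 and -1.58 in WT, a difference of 0.54 (adjusted p = 0.00817); its 3 probes ran from 0.01 to 0.57. Lanosterol synthase Lss differed by 0.48 and 0.37 at its probes. The sterol reductase Tm7sf2 was at -0.46. Under median scaling 2 members were higher and 0 lower. Interferon-stimulated genes had 1 of 29 members higher and 0 lower: Irf7, the master regulator of type I interferon genes, read -0.77, -0.91, -1.0 and -0.99 in KO and -1.75, -1.50 and -1.96 in WT (0.82, adjusted p = 0.00132). In the stress response list Ppp1r15a, which restores translation after stress, was at 0.72 (adjusted p = 0.00252) and the factor Atf4 at 0.32 (adjusted p = 0.0229). Of its 21 members 2 were higher and 1 lower, and the lower one had probes of both signs.

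Immediate-early genes were lower or not called. Of 23 members 5 were lower and 0 higher, with a median of -0.33. Of all genes 8.76% were lower, with a median of -0.13. Fos read -0.50, 0.14, -0.56 and -1.20 in KO and 1.80, 0.39 and 0.66 in WT (-1.49 ± 0.48, SE, adjusted p = 0.0408). The spread within each group was over 1 log2 unit. The orphan nuclear receptor Nr4a1 was at -1.08 (adjusted p = 0.0427) with overlapping arrays, its relative Nr4a2 at -0.43 and the small Maf protein Maff at -0.42. With median scaling 0 members were called, and in the other scalings 2 or 3 were lower and up to 1 higher. Among Krüppel-like factors 4 of 16 were lower, counting Klf15, and 0 higher, with a median of -0.11. Klf11 differed by -0.53 and -0.54 at its probes, Klf6 by -0.33 and -0.35, and Klf10 by -0.56 at its single probe. The second probes of Klf11 and Klf6 were not called (adjusted p = 0.0764 and 0.0695 over probes), and in all 6 scalings together Klf15 was the only member called. The glucocorticoid receptor gene Nr3c1 was not called (-0.19, adjusted p = 0.173); its 4 probes gave -0.19, 0.32, 0.23 and 0.98.

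Near Klf15 on chromosome 6, calls were frequent. Within 10 Mb of the gene, 29 of 146 tested genes were called (19.9%, beside 13.8% of all genes), 6 higher and 23 lower, and in 26 of them all probes had the same sign. Of these, 6 were called in 1 direction in all 3 genotype comparisons (4.11% of the 146): Nat8f5, Aldh1l1, Gmcl1 and Pcyox1 were lower and Fbln2 and Podxl2 higher. The acetyltransferase-family gene Nat8f5 read -6.40, -6.20, -5.72 and -5.73 in KO and -3.10, -3.16 and -2.98 in WT (-2.93 ± 0.37, SE, adjusted p = 3.74e-05); its probe may share signal with close relatives, of which Nat8 was at -0.77 and Nat8f1 at -0.37. Aldh1l1, a folate enzyme that oxidises 10-formyltetrahydrofolate, read -0.01, -0.24, -0.07 and -0.48 in KO and 1.15, 1.43 and 1.09 in WT (-1.42 ± 0.16, SE, adjusted p = 4.8e-06). Gmcl1 differed by -0.62, the prenylcysteine oxidase Pcyox1 by -0.50 and Podxl2, a sialomucin, by 0.90.

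Skeletal muscle genes, which lung tissue should hold little of, differed and moved with 1 WT array. Of 13 members 7 were lower in KO and 0 higher, with a median of -0.92. Tnnc2, the troponin C of fast fibres, read -3.82, -3.22, -3.53 and -3.05 in KO and -2.85, 1.07 and -1.31 in WT (-2.37 ± 0.50, SE, adjusted p = 0.00443). WT replicate 38 was the highest by more than 2 log2 units. Myh2, a fast myosin heavy chain, read -7.35, -6.92, -7.54 and -6.10 in KO and -5.50, -3.71 and -4.94 in WT, and its probes gave -2.26 and -2.45. The summed level of the list, as a linear signal relative to the 75th percentile, was 2.03 to 3.11 over the KO arrays and 2.81, 12.1 and 3.80 on WT replicates 37, 38 and 39. Without WT replicate 38, 2 members were lower and 1 higher, and the call of Myh2 ended. In the heart list 1 of 14 members was called, with summed levels of 10.9 to 44.6 in KO and 15.3, 51.9 and 16.1 in WT. That member, the slow myosin Myh7, read 2.21, 2.22, 1.77 and 1.44 in KO and 2.89, 2.95 and 2.67 in WT, and its probes gave -0.93 and -0.95.

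**Figure D4:**
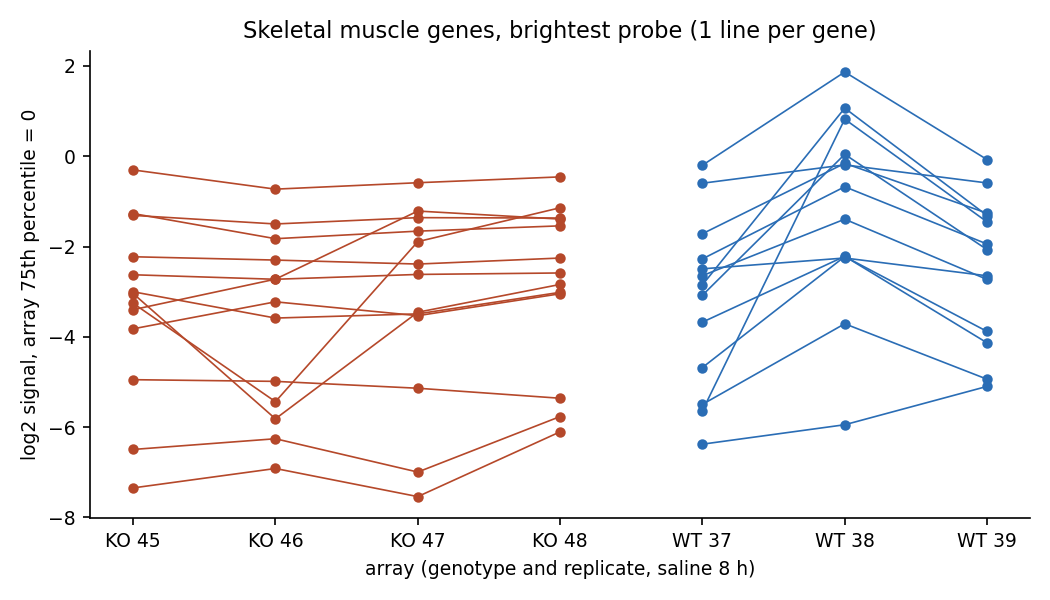
Level (log2, relative to the 75th percentile of the array) of the 13 tested skeletal muscle genes on each of the 4 KO and 3 WT arrays at saline 8 h; a line joins the points of 1 gene. WT replicate 38 stands above the other WT arrays for most genes, among them Tnnc2 at 1.07.

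Among markers of other lung cells at most 2 per list were called, where 5.03% of all genes were higher and 8.76% lower. Whether these small counts depart from those shares was not tested. Of the alveolar type 1 markers 2 of 9 were lower and 0 higher, namely Clic5 (-0.27) and Emp2 (-0.27), and of the type 2 markers 2 of 12, namely the surfactant gene Sftpd (-0.26) and Lamp3 (-0.25, with probes of both signs). Under the 5 other scalings 0 markers of either list were lower, 0 type 1 markers were higher and 0 or 1 type 2 markers were higher. Of the smooth muscle markers 2 of 9 were higher and 0 lower, the intermediate filament gene Des (0.55) and Smtn (0.46), with 1 or 2 higher under the other scalings and 0 without WT replicate 39. The surfactant gene Sftpc, which defines alveolar type 2 cells, averaged 7.46 in KO and 7.49 in WT, and the club cell secretory gene Scgb1a1 7.50 in KO and 7.48 in WT. Of the T cell markers 1 of 19 was higher and 1 lower, with summed levels of 7.74 to 8.32 in KO and 8.72 to 10.3 in WT. Of the B cell markers 1 of 15 was lower, with summed levels of 18.5 to 21.1 in KO and 22.3 to 27.8 in WT. The summed adipocyte markers, none of them called, were at 9.27 to 10.8 in KO and 11.7 to 17.8 in WT. For these 3 lists the groups did not overlap. The same held for monocytes and dendritic cells (103.9 to 108.5 in KO, 108.8 to 127.6 in WT). It also held outside the cell markers, as for respiratory chain genes (439 to 464 in KO, 501 to 565 in WT). The median difference of all genes was itself -0.13, and the part of cell makeup in the results was not tested. No member was called in the lists of NK cells, neutrophils, monocytes and dendritic cells, club and ciliated cells, erythroid cells, adipocytes, or thymus, thyroid, oesophagus and liver.

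The same genotype difference was measured on separate arrays at saline 4 h and dexamethasone 8 h, which share no arrays with this comparison. At saline 4 h 930 genes were higher in KO (6.06%) and 2911 lower (19%), and under dexamethasone 465 (3.03%) and 296 (1.93%). Between saline 8 h and saline 4 h, 0 genes passed the test of the difference in limma, with 1959 at an unadjusted p under 0.05 (12.8%). Between saline 8 h and dexamethasone 8 h, 1003 did (6.53%), with 3805 at an unadjusted p under 0.05 (24.8%), but 32 to 501 under the other scalings and 27 by every probe (0.498%). Of the 82 rises seen by every probe, 33 were also called higher at saline 4 h (40.2% of them, 10.1% of the 326 such calls there) and 4 under dexamethasone (4.88%, and 2.40% of 167). For the 43 falls, 30 were called at saline 4 h (69.8%, and 2.31% of 1301) and 8 under dexamethasone (18.6%, and 7.92% of 101). The KO arrays of both saline times share the lower probe ratio described above, though at saline 4 h the groups overlapped after quantile normalization.

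**Figure D5:**
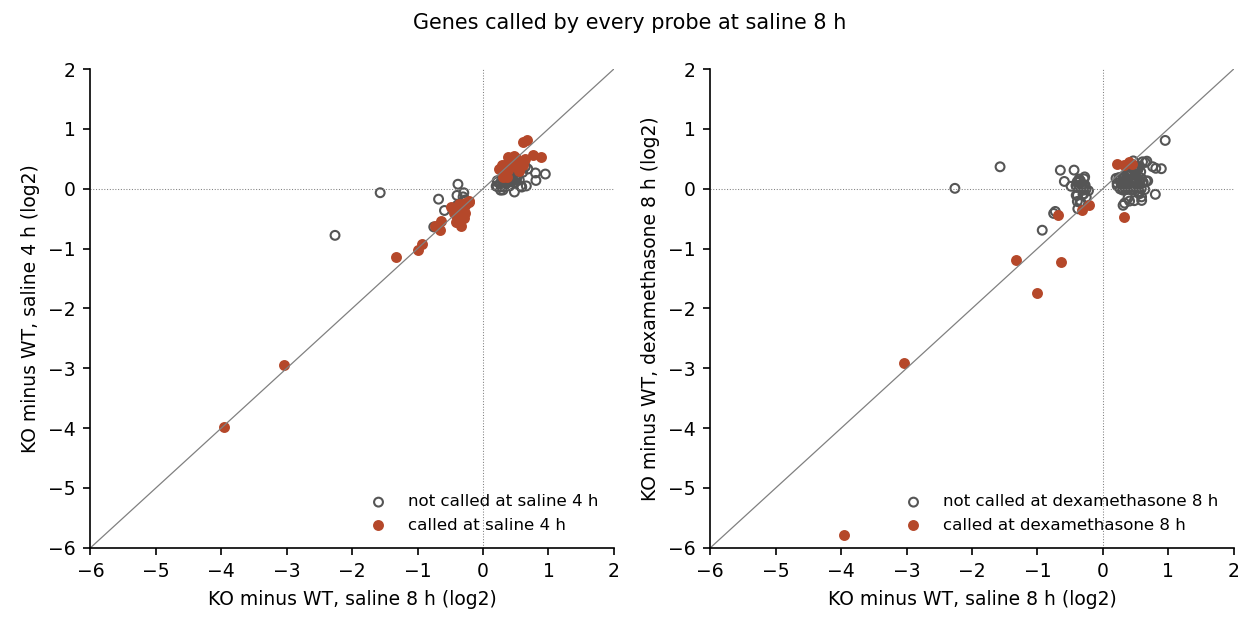
KO minus WT difference (log2) at saline 8 h (x axis) of the 125 genes called by every probe, against the same difference at saline 4 h (left panel) and under dexamethasone at 8 h (right panel); filled points were called in that other comparison and the diagonal marks equal differences. At saline 4 h 79 of 82 rises and 42 of 43 falls keep their sign, and under dexamethasone 62 and 23.

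Called in the same direction in all 3 genotype comparisons, with all probes of 1 sign, were 19 genes higher in KO (0.124% of genes tested) and 59 lower (0.384%). Only 5 of the 19 and 10 of the 59 had 2 or more probes, so for the rest the probes could not be compared. At saline 8 h 1 and 6 of them were called by every probe. The lower set had a median of -0.68. Differences at saline 8 h, saline 4 h and dexamethasone 8 h were -2.63, -1.65 and -3.54 for Cbs, -2.23, -2.10 and -1.66 for Gnmt, and -1.32, -1.33 and -1.54 for Aldh6a1. They were -1.0, -1.03 and -1.75 for Sfxn2, -0.64, -0.54 and -1.23 for Bckdhb, and -3.96, -3.98 and -5.79 for Adhfe1, whose second probe gave -2.50, -0.13 and -1.12. Among the higher set Fbln2 was at 2.06, 2.22 and 2.60. In 58 of the 59 lower genes the arrays at saline 8 h did not overlap. That was so in 1934 of all 2117 called genes, so it adds little to the call. Of the 59, 53 were called at saline 8 h with the ratio as a covariate and 38 on the 7 arrays alone. Of the 19 higher genes 16 and 5 were. With that covariate in all 3 comparisons, the genes called in 1 direction in all 3 by the brightest probe numbered 17, against 98 without it.

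Genes whose genotype difference under saline departed from that under dexamethasone in all 6 scalings numbered 11 in the upward and 10 in the downward direction. Slc38a4, an amino acid transporter of the system A family, was lower in KO under saline (-0.64 and -0.40 at its probes) and higher under dexamethasone (0.70 and 0.62), a difference of -1.34 (adjusted p = 0.00123). Fah, the last enzyme of tyrosine breakdown, was at -0.35 under saline and -1.15 under dexamethasone (0.79, adjusted p = 0.000849). Mxra7 was at 1.09 under saline and -0.22 under dexamethasone (1.31, adjusted p = 0.012), and the synaptotagmin Syt12 at -0.49 and 0.77 (-1.26, adjusted p = 0.00218). Bckdhb and Sfxn2 passed this test here (0.59 and 0.75) and in 4 and 5 of the 6 scalings.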

How the data were processed

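RNA of whole mouse lung was measured on single-colour Agilent whole mouse genome 4x44K arrays after TRIzol and column extraction and Cy3 labelling, per the labels' protocols. Spot intensity was read from the deposited scanner output; per the file headers, it came from Feature Extraction version 10.7.3.1, and the submitters' processing notes name 10.6. The same headers say that the processed signal had background subtracted and was detrended within the array, without normalization between arrays. Log2 values in the authors' deposited series table were an alternative only, since the sources used here do not give their normalization. Each array held 43379 spots besides controls, 0 of them saturated. Of these spots 76.7 to 82.9% were well above background on the 4 KO arrays and 79.9 to 88.5% on the 3 WT arrays, whose number limits the precision. Arrays correlated with r = 0.978 to 0.990 within KO and 0.981 to 0.990 within WT.

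Outlier spots (0.101 to 0.198% on these 7 arrays) were left out, spots of a probe averaged, and the log2 of the signal scaled to the array's 75th percentile. A probe was kept (33938) if 3 or more arrays of some group had it well above background. Names came from accessions in the files, looked up among RefSeq genes of GRCm38.p6; 24844 of 41174 probes found 1 gene, 0 found several and 16330 found none. The array design uses another build, so the only coordinates given are those of promoters, whose motifs were counted outside chromosome 18. One model of 8 group means on all 29 arrays was fitted with limma 3.58.1 in R 4.3.3, so the groups share 1 estimate of the spread. The labels call the arrays biologic quadruplicates, of which 3 are analysed here for WT; what the replicates share is not stated, so p-values measure the spread between these samples.

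Named genes are Klf15 and Nr3c1; the 14 largest falls and 14 largest rises called by every probe without overlap; the 4 largest each way with a single probe; up to 3 called members per list; called genes within 10 Mb of Klf15; and the 6 lowest p-values per difference test. Other list members, and the genes called in all 3 genotype comparisons, were picked after their values were seen. A few genes that the rule names are not reported here. The rule, the 39 gene lists and the tests were chosen with earlier results of these data known. On simulated data for this comparison (15357 genes), differences of 0.5, 1, 2 and 3 were called in 42, 76, 88 and 94% of 50 genes each, with 4 false calls. The simulated noise was independent between genes and arrays, without slide, scaling or probe ratio effects, so the false calls do not measure those. Alternatives were 5 scalings, filters, slide as a block, array weights, trend and robust variance, the 7 arrays alone, the mean or dimmest probe, leaving out each array and the probe ratio as a covariate, the last chosen after seeing the data.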

Additional observations from a re-analysis of the deposited data

Results flagged for a closer look

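Of 174 genes examined on the 4 KO arrays, 5 had 1 array apart from the rest by Dixon's 95% limit, which chance passes in about 1 group in 20. The lowest KO array stood apart for Creb3l2 (-1.14), Fbln2 (1.74), the hexokinase Hk2 (0.043), Igfbp4 (0.70) and Kyat3 (-1.39). For Fbln2, Igfbp4 and Kyat3 that array still lay on the KO side of every WT array.

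For 37 of these genes the KO minus WT difference under saline at 8 h departed from that under dexamethasone at 8 h (limma test of the difference, adjusted p under 0.05). Of all 15357 genes tested 1003 did so (6.53%). The genes examined were picked in part by low p in this same test and by large saline differences, so their count is not comparable with that share. The values below are the saline difference minus the dexamethasone difference on the log2 scale. For 4 enzymes of amino acid breakdown the KO minus WT difference was more negative under dexamethasone. The values were 0.59 for Bckdhb, 0.92 for Cbs, 0.79 for Fah and 0.43 for Gstz1, whereas Gnmt gave -0.58. The mitochondrial genes Sfxn2 and Suclg2 gave 0.75 and 0.59. Lrtm2 gave 1.03 and the ribosome assembly gene Rrs1 0.46.

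Among rises under saline, Vamp3 gave 0.90, Pcid2 0.65, Mxra7 1.31, Cyp51 0.67, Icam1 0.57 and Atf4 0.48. Muscle genes gave -2.39 (Tnnc2) and -2.04 (Actn3), and both were high on WT replicate 38. Respiratory chain genes gave -0.61 (Cox4i1), -0.57 (Cox5a) and -0.39 (Uqcrc2), and the ribosomal protein gene Rpl14 -0.59. Lipid genes gave -0.87 (Fasn) and -0.53 (Scd2), and transporters and vesicle genes -1.34 (Slc38a4) and -1.26 (Syt12). The remaining genes were Cotl1 (-0.96), Mrvi1 (-0.75), Mitf (-0.60), Col18a1 (-0.60), Nfe2l1 (-0.59), Nat8f1 (-0.54), Farp1 (-0.53), Maff (-0.50), Sftpd (-0.48), Bnip3 (-0.47), Tsc2 (-0.41) and Timp3 (-0.38). Of all these, Fah, Mxra7, Slc38a4 and Syt12 passed in all 6 scalings.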

How the results depend on the processing

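The number of genes called depended on the fit. Against 2117, it was 489 with median scaling, 1086 with normexp and quantile, 1181 with the deposited table, 336 on the 7 arrays alone, 4072 and 4027 with slide as a fixed and a random block, and 6282 with array weights; without 1 array it ran from 918 (without WT replicate 39; 942 without WT replicate 37) to 2149. Genes called by every probe numbered 125, against 57 with median scaling, 26 on the 7 arrays, 326 and 317 with slide blocks and 672 with array weights; without 1 array they ran from 37 (without WT replicate 39) to 148, with 45 without WT replicate 37 and 70 and 69 without KO replicates 45 and 46. For the difference between saline 8 h and 4 h, 0 genes became 1 with a filter on all arrays and 3403 with array weights, and 0 to 1 without 1 array (1 without KO replicate 47 or WT replicate 37). For the difference from dexamethasone, 1003 became 379 (quantile), 501 (cyclic loess), 32 (median), 160 (normexp), 187 (deposited), 445 (slide as a fixed block), 3306 (array weights), 644 (mean of probes), 665 (dimmest probe) and 308 (ratio covariate), and 402 to 1092 without 1 array, with 661 and 453 without KO replicates 46 and 47, and 609 and 402 without WT replicates 37 and 38. Genes called in 1 direction in all 3 comparisons by the brightest probe numbered 98, against 44 (median), 65 (normexp), 63 (deposited), 170 (slide as a random block), 224 (array weights) and 17 (ratio covariate), and 77 to 100 without 1 array.

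Klf15 stayed between -3.31 and -2.34 and kept its call in all alternatives with a test. The probe ratio ran from -0.21 (quantile normalization; also -0.21 with cyclic loess and -0.19 with the deposited table) to -0.14 (without WT replicate 38). Nr3c1, not called at -0.19, turned to 0.33 with the mean of its probes (adjusted p = 0.00308) and 0.98 with the dimmest (adjusted p = 0.000882). Of the other 121 named calls none changed sign; 62 lost their call with median scaling, 72 on the 7 arrays and 38 with the ratio covariate, and 16 to 41 when 1 array was left out. On slide 1, where each group had 1 array, 2116 of 2117 called genes kept their sign, beside 12946 of all 15347 (84.4%). Those arrays are among the 7 compared, so this is not an independent check. In 1934 called genes the groups did not overlap, which fixes the sign on slide 1. No paired analysis was possible because the replicate numbers of KO and WT arrays are not shared.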

Other observations

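Housekeeping gene lists show how far the scaling sets small differences. Of 30 cytosolic ribosomal protein genes 8 were lower in KO and 0 higher, with a median of -0.24, led by Rpl14 (-0.48, adjusted p = 0.000861). The other scalings gave 0 or 1 lower members, and 2 to 8 were lower without 1 array. Of 30 respiratory chain genes 5 were lower and 0 higher, 4 of the 5 with all probes of 1 sign. Among them were the cytochrome oxidase subunits Cox4i1 (-0.36) and Cox5a (-0.32). After quantile normalization 3 were higher and 0 lower. Collagen and matrix genes had 2 higher and 2 lower members of 35, and 7 higher and 1 lower after quantile normalization. In 1 of the 2 higher members all probes had the same sign.

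Clock genes had 2 of 19 members lower and 0 higher. The repressor Bhlhe40 was one of them, at -0.48 (adjusted p = 0.00887). The clock output factor Dbp was at -0.07 and the period gene Per1 at 0.23, neither called. Of the glucocorticoid-induced genes 1 of 28 was higher and 3 lower at saline 8 h, 2 of the 3 with all probes of 1 sign. The cell-cycle inhibitor Cdkn1a was at 0.59 and the receptor feedback gene Errfi1 at -0.43. Tsc22d3 and Fkbp5 were at 0.09 and -0.16 without a call. The fibroblast ligand gene Wnt2 read 0.85, 1.08, 1.21 and 0.91 in KO and 1.59, 1.72 and 1.53 in WT (-0.60, adjusted p = 0.00628).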
